A study of Homo sapiens with 4 samples.

Results

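The DNAJ proteins, also called J-domain proteins or HSP40s, were followed at the RNA level in HT1376 cells, an established human bladder cancer cell line. They are the protein-coding genes of the count table whose symbol is DNAJA, DNAJB or DNAJC and a number. The rule found 45 genes among 61860 rows: 4 of class A, 12 of class B and 29 of class C, the last including the read-through gene DNAJC25-GNG10. The rule reads symbols only, but the family was picked with earlier results of these data known. Another 41 rows with matching symbols are pseudogenes or other noncoding genes and were left out.

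A J domain docks on an HSP70 chaperone and makes it hydrolyse ATP, which locks the HSP70 onto its unfolded client. Class A proteins carry, beside the J domain, a glycine- and phenylalanine-rich stretch and a zinc finger. Class B proteins lack the zinc finger, and class C proteins share only the J domain and differ widely in their other parts. Each compartment has its own set: cytosolic members work with HSPA8 and the inducible HSP70s, those of the endoplasmic reticulum (ER) lumen with HSPA5 (BiP), and those of the mitochondrial matrix with HSPA9. Heat shock factor HSF1 controls several cytosolic members, and the unfolded protein response of the ER controls several of the ER lumen.

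Treated samples were 2 HT1376 samples given 1 nM enfortumab vedotin (EV), set against 2 treated with a control labelled WFI, and both groups were taken at 48 h. EV is an antibody-drug conjugate that binds nectin-4 and carries the microtubule poison monomethyl auristatin E. All 4 samples were of the same line in the same medium, and nothing in the labels says that replicates came from separate cultures. Spread between samples, on which every p-value rests, may thus be only technical.

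Total counts were 19368791 and 20727175 in EV and 19447577 and 19669037 in WFI. Levels are given in CPM, the gene's count relative to the library size after TMM scaling. A total of 3 counts, the floor for a count of 0, corresponds to 0.143 to 0.165 CPM and covers counting error only. Of 16 urothelial and epithelial markers, 10 had enough counts to test and all of these were called higher in EV, where 34.5% of all genes were. KRT5, TP63, UPK1A and EPCAM among them passed the count filter through EV alone. The sum over the whole list was 3456 and 3497 CPM in EV and 1623 and 1607 CPM in WFI, mostly KRT8, KRT7 and KRT18. KRT20, UPK1B, UPK2, UPK3A, KRT19 and CDH1 had at most 13 counts in any sample. Of 4 mesenchymal markers, FN1 and ZEB1 were called lower in EV and VIM higher, and CDH2 was not called. FN1, the most abundant, had 5329 and 5267 CPM in EV and 10089 and 9938 CPM in WFI. Leukocyte, fibroblast and endothelial markers each summed to at most 12.2 CPM in any sample. CD14 gave most of the leukocyte sum, and PTPRC, CD3E, LYZ and HBB had at most 9 counts in any sample. The part of these shifts in the DNAJ values was not tested. In bulk RNA, fewer cells of a kind and less RNA per cell cannot be told apart.

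DNAJA1 showed the largest change in amount. Its RNA was 4.78-fold higher in EV, where it was the most abundant DNAJ RNA. The rest of the family moved in both directions. Cytosolic class A and B members were mostly higher and endosomal members mostly lower, and the ER lumen and the mitochondria held both. Of 4 ER-membrane members 3 were called lower, but DNAJB14 and DNAJC18 lost that call after corrections for length and GC content. For DNAJB14 of the ER membrane, DNAJC10 of the ER lumen and the nuclear DNAJC21 the sign turned with a correction for gene length and GC content together, given with each. Of the 45 genes, 38 had enough counts to be tested. By edgeR's quasi-likelihood test at an adjusted p below 0.05, 16 rose in EV and 11 fell, and the other 11 did not pass. Across the 17465 genes tested, 34.5% rose and 31.5% fell, and of the protein-coding ones 36.2% and 34.4%. The DNAJ shares of 42.1% and 28.9% lie near that background, so the counts alone do not set the family apart, and the counts by class and location are to be read beside the same shares. With a change of at least 1 on the log2 scale also required, 6 DNAJ genes rose and 3 fell, against 17.5% and 13.3% of all genes. The median log2 fold change, EV over WFI, was 0.11 over the DNAJ genes tested and 0.021 over all genes. Without EV replicate 1 the DNAJ median was 0.021. The groups did not overlap for 31 DNAJ genes, 18 above and 13 below WFI, where 82.8% of all genes did not overlap (42.1% above and 40.7% below).

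**Figure D1:**
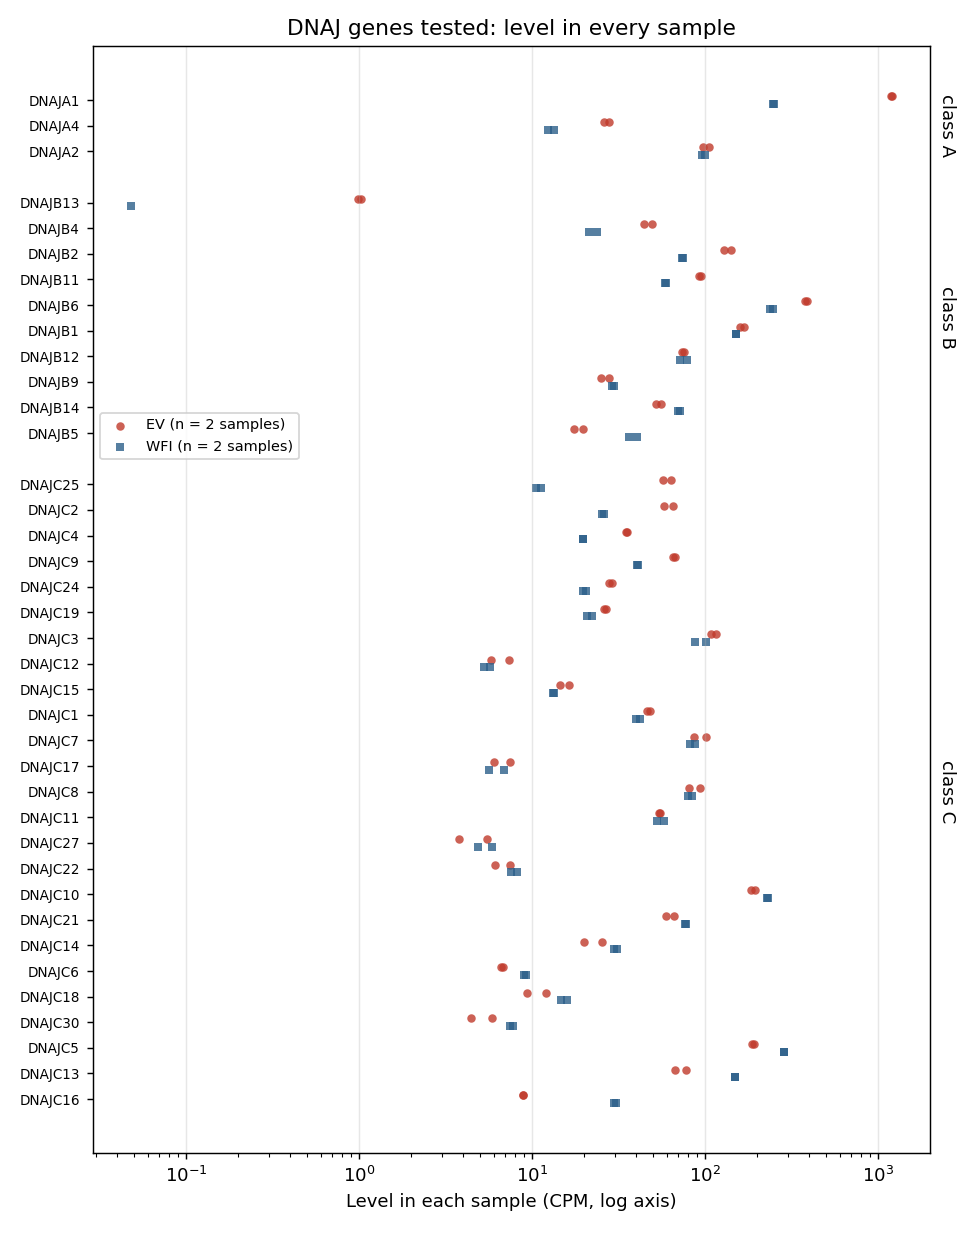
Level of each tested DNAJ gene in every sample, in CPM on a log axis, with EV as circles and WFI as squares, grouped by class. DNAJA1 stands furthest right, with 1200.2 and 1182 CPM in EV, and the WFI replicate of DNAJB13 with 0 counts cannot be shown on a log axis.

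Class A holds the general-purpose cochaperones. Of its 3 tested members, all of the cytosol, 2 rose and 0 fell, with a median log2 fold change of 1.06, where 34.5% and 31.5% of all genes did. DNAJA1 (ENSG00000086061; chromosome 9, 33025211 to 33039907, plus strand, build hg38), a farnesylated partner of HSPA8, had 1200.2 and 1182 CPM in EV, against 250.5 and 248 CPM in WFI. Both EV samples lay far above both WFI samples, and replicates differed by little (1191 ± 12.5 CPM in EV and 249 ± 1.68 CPM in WFI, SD, n = 2 each). The difference passed the test (log2 fold change 2.26 ± 0.030 SE, edgeR adjusted p = 5.76e-13). Per kilobase of merged exon length it was the most abundant DNAJ RNA in both groups, at 436 CPM per kilobase in EV and 91.3 in WFI. The next in order were DNAJB1 in EV, at 44.3, and DNAJC5 in WFI, at 54.1 CPM per kilobase. Its 6 processed pseudogenes held 21 counts over all samples, 0.0381% of the 55092 on DNAJA1.

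DNAJA4, whose gene is heat-inducible, had 27.8 and 25.9 CPM in EV, against 12.4 and 13.4 CPM in WFI. It rose 2.08-fold with no overlap between groups (log2 fold change 1.06 ± 0.11 SE, edgeR adjusted p = 1.11e-05). DNAJA2, the close relative of DNAJA1 in the same compartment, had 105 and 96.8 CPM in EV, against 95.6 and 99.8 CPM in WFI, and its groups overlapped (log2 fold change 0.048, edgeR adjusted p = 0.490). It passed after the correction for merged exon length and GC (0.16, edgeR adjusted p = 0.0224), and did not with principal transcript length. DNAJA3, the class A member of the mitochondrial matrix, had 0 and 1 counts in EV and 0 and 0 in WFI and was not tested. It lies in a run of 6 neighbouring coding genes on chromosome 16 with fewer than 10 counts each over all samples (CORO7-PAM16, CORO7, VASN, DNAJA3, NMRAL1 and HMOX2), so its near-zero values give no usable measurement.

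The promoters of DNAJA1 and of DNAJB1, DNAJB4 and DNAJB6 of class B are shown because these genes hold heat shock element pairs and yet differed widely in their change. All of those shown were called higher in EV, and other DNAJ genes with a pair, named below, were not all called higher. HSF1 binds repeats of the 5-base unit nGAAn in alternating orientation, so facing pairs read GAANNTTC or TTCNNGAA, each its own reverse complement. The sequences are the 250 bases before the RefSeq start site on GRCh38.p14, from 5′ to 3′ on the gene's strand, with such pairs in capitals. They cover chr9:33025023-33025272 (plus strand) for DNAJA1, chr19:14518398-14518647 (minus strand) for DNAJB1, chr1:78004689-78004938 (plus strand) for DNAJB4 and chr7:157336754-157337003 (plus strand) for DNAJB6.
DNAJA1: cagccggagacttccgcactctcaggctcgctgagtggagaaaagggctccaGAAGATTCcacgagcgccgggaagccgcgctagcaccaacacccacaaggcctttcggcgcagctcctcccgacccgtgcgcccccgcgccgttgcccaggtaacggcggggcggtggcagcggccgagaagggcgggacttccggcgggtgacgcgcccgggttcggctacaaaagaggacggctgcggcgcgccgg
DNAJB1: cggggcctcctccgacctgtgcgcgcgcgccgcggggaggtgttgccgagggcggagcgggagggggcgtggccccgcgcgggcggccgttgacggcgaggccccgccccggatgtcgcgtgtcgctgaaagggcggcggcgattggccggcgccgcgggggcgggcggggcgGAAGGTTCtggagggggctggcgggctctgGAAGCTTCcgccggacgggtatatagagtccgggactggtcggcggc
DNAJB4: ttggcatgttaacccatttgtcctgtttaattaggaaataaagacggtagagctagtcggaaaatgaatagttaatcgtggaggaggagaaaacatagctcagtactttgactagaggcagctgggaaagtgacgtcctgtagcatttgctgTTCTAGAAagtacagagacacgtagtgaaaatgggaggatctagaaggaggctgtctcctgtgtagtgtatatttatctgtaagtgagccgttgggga
DNAJB6: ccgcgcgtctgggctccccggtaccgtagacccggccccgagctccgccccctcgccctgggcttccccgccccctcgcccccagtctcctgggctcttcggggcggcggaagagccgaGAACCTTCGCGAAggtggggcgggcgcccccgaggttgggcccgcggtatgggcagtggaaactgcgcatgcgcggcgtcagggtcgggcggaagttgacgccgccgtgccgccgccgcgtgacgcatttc
In DNAJA1 a second and longer stretch, GAACTTTCCAGAA, lies at bases 4 to 16 after the start site, and joins 3 units. DNAJB6 holds a stretch of the same length, GAACCTTCGCGAA, before its start. In windows of 300 bases, 250 before and 50 after the start, either pair was present in 8 of 40 (20%) DNAJ genes with a RefSeq window, and in 2286 of 15335 (14.9%) coding genes. Among the DNAJ genes that rose it was present in 5 of 14 (35.7%), among those that fell in 1 of 11 (9.09%). The 5 that rose were DNAJA1, DNAJA4, DNAJB1, DNAJB4 and DNAJB6. DNAJB1, with 2 pairs close to its start, changed least of them. A pair was also present in DNAJC6, which was called lower, in DNAJC15, which was not called, and in DNAJB7, which was not tested. DNAJB1 has 3 windows, of which the one shown holds 2 pairs and another 1, and DNAJB4 has 2, of which only the one shown holds a pair. The ER stress element, searched by its boxes CCAAT and CCACG at 9 bases apart on both strands, was found for none of the 40 DNAJ genes and for 0.137% of all coding genes with a window. A match is a description of letters and no measure of binding.

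Class B includes the stress-inducible DNAJB1 and the aggregation-suppressing members DNAJB2 and DNAJB6. Of 10 tested, 6 rose and 2 fell, with a median log2 fold change of 0.38, beside 34.5% and 31.5% of all genes. The median was 0.16 under a 50-count filter, which leaves out DNAJB13, and 0.63 and 0.25 after corrections for length and GC, with merged exon length and with the principal transcript. DNAJB6, the most abundant class B member by CPM, had 376 and 386 CPM in EV, against 246 and 238 CPM in WFI. It rose 1.58-fold without overlap (log2 fold change 0.66 ± 0.036 SE, edgeR adjusted p = 4.43e-08), and the corrections for length and base content (GC) gave 1.48 with merged exon length and 0.39 with the length of the principal transcript; corrected values are given in that order throughout. DNAJB2, a ubiquitin-binding member best known in neurons, had 128 and 141 CPM in EV, against 74.2 and 73.3 CPM in WFI. The samples separated cleanly (log2 fold change 0.87 ± 0.059 SE, edgeR adjusted p = 2.4e-07). DNAJB4, a close relative of DNAJB1, had 49.6 and 44.3 CPM in EV, against 23.8 and 21.4 CPM in WFI. It was 2.07-fold higher (log2 fold change 1.05 ± 0.099 SE, edgeR adjusted p = 3.63e-06).

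DNAJB1 itself, the classical heat-shock HSP40, had 167 and 159 CPM in EV, against 150.2 and 151 CPM in WFI. Both EV samples were above both WFI samples, but the size was 1.08-fold and the call was marginal (log2 fold change 0.11 ± 0.045 SE, edgeR adjusted p = 0.0481). It was lost under DESeq2 (adjusted p = 0.0700), with the replicate block (adjusted p = 0.0617), with no count filter (adjusted p = 0.608), and without EV replicate 1 (edgeR adjusted p = 0.181), WFI replicate 1 (0.448) or WFI replicate 2 (0.375). Leaving out a sample leaves a group with 1, which is then assumed to vary like the other group, here and in all such values. After the length and GC corrections its log2 fold change was -0.011 and -0.065.

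DNAJB5, a nuclear and cytosolic member linked to histone deacetylase shuttling in heart, went the other way. It had 17.6 and 19.7 CPM in EV, against 36.3 and 40.4 CPM in WFI, about 0.486 times the WFI level (log2 fold change -1.04 ± 0.11 SE, edgeR adjusted p = 7.26e-06). DNAJB13, a radial-spoke protein of cilia and sperm tails, had 18 and 20 counts in EV and 0 and 1 in WFI. It passed the count filter through EV alone, so a difference was built into its selection. The ratio of its summed counts per library size was 42.02 with an exact 95% counting interval of 7.10 to 1703. It was the least abundant DNAJ RNA tested.

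**Figure D2:**
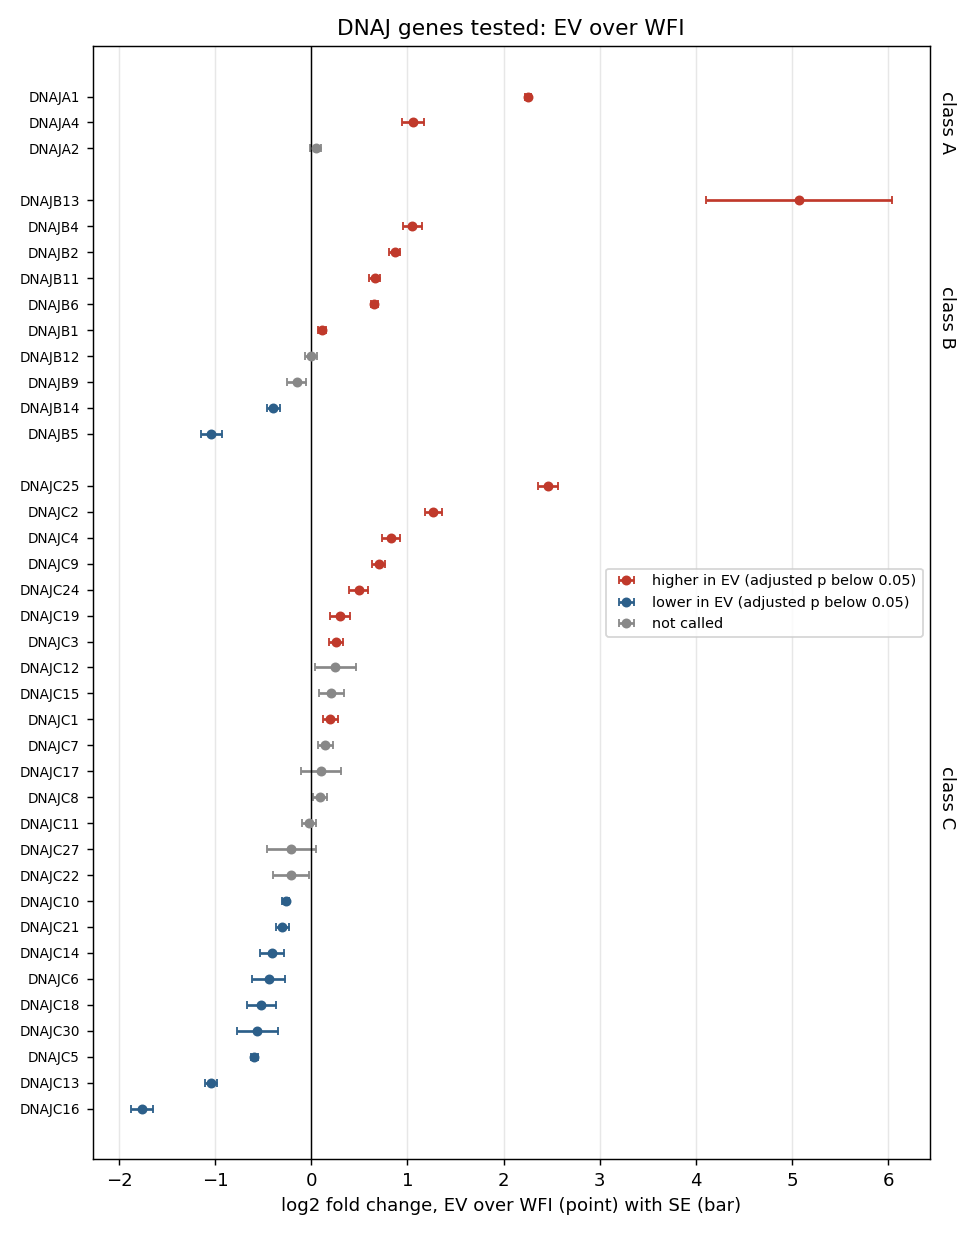
Log2 fold change of each tested DNAJ gene, EV over WFI, with its SE as the bar (n = 2 samples per group), grouped by class. DNAJB13, DNAJC25 and DNAJA1 lie furthest to the right and DNAJC16 furthest to the left.

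Of 25 class C members tested, 8 rose (32%), 9 fell (36%) and 8 were not called. These shares lie near the 34.5% and 31.5% of all genes. The median log2 fold change was 0.090, 0.0076 with the principal-transcript correction and -0.021 without EV replicate 1. Among those of the cytosol and nucleus, DNAJC2 (MPP11), which sits with HSPA14 at the exit of the ribosome, had 65.4 and 58.2 CPM in EV, against 25.2 and 26.1 CPM in WFI. It rose 2.41-fold without overlap (log2 fold change 1.27 ± 0.087 SE, edgeR adjusted p = 2.67e-07). DNAJC9, a histone chaperone, rose 1.63-fold and DNAJC24 (DPH4), needed to make diphthamide on elongation factor EF2, rose 1.41-fold. Their edgeR adjusted p-values were 4.9e-06 and 0.00133. DNAJC24 had a log2 fold change of 0.49, which the corrections moved to 0.88 with merged exon length and 0.30 with the principal transcript.

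DNAJC21, a ribosome biogenesis factor, was lower in EV (log2 fold change -0.30, edgeR adjusted p = 0.00218). After the corrections it had 0.22 (edgeR adjusted p = 0.0103) and 0.14, opposite in sign. It is counted among the genes that fell, but no direction is given for it. DNAJC7 (TPR2), which binds both HSP70 and HSP90, had a log2 fold change of 0.15 and did not pass (edgeR adjusted p = 0.104). It passed without EV replicate 2 (edgeR adjusted p = 0.00810) and with the replicate block (edgeR adjusted p = 0.0427), but was 0.022 without EV replicate 1 (edgeR adjusted p = 0.760) and 0.62 and -0.082 after the corrections. The splicing-associated DNAJC8 and DNAJC17, with 0.090 and 0.10, and DNAJC27, a Rab-like protein, with -0.21, did not pass either. DNAJC8 passed without EV replicate 2 (edgeR adjusted p = 0.0241) and was -0.035 without EV replicate 1.

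Over all classes, 16 members of the cytosol and nucleus were tested, 9 rose and 2 fell, and the median log2 fold change was 0.32 (0.63 and 0.25 after the corrections). The 16 tested members of the ER and the mitochondria gave 6 and 6, with a median of -0.014. With the corrections the ER median turned from -0.15 to 0.11 and 0.018, and the mitochondrial went from 0.21 to 0.29 and 0.020. The shares by location are set beside 34.5% and 31.5% over all genes, and no test of the difference between locations was run. Within the cytosol and nucleus, class B had 4 of 5 higher and class C 3 of 8.

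**Figure D3:**
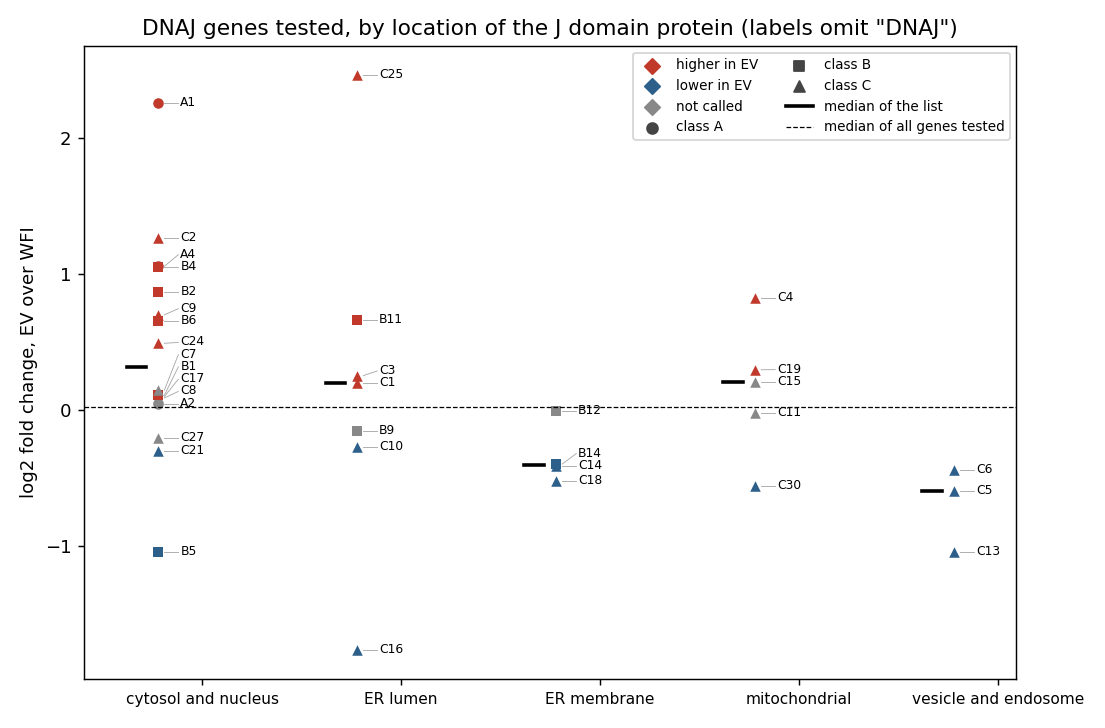
Log2 fold change, EV over WFI, of the tested DNAJ genes by location of the protein, with class as the symbol and the call as the colour. The short bar is the median of each list, from 0.32 for the cytosol and nucleus to -0.59 for vesicles and endosomes, and the dashed line is the median of all genes tested, 0.021.

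In the ER lumen the members spread widest. Of 7 tested, 4 rose and 2 fell, beside 34.5% and 31.5% of all genes. DNAJC25 (chromosome 9, 111631352 to 111654351, plus strand, hg38), a membrane protein of little-known function listed with the ER lumen for its J domain, had 56.8 and 63.99 CPM in EV, against 10.6 and 11.3 CPM in WFI. This was the largest rise among the members with more than 10 counts in every sample, 5.52-fold (log2 fold change 2.46 ± 0.10 SE, edgeR adjusted p = 4.49e-09). Its locus also carries the read-through gene DNAJC25-GNG10, with 0 counts in every sample, and GNG10, with 4 and 3 counts in EV and 3 and 4 in WFI. The read-through gene overlaps both DNAJC25 and GNG10 on the same strand, and how shared reads were counted is not given. The near-zero values thus give no usable measurement of the read-through gene or GNG10. At the other end DNAJC16, another member listed there, had 8.91 and 8.83 CPM in EV, against 29.8 and 30.4 CPM in WFI. It was 0.295 times the WFI level, the largest fall of the family (log2 fold change -1.76 ± 0.11 SE, edgeR adjusted p = 1.7e-07).

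The luminal cochaperones of HSPA5 showed no common direction. DNAJB11 (ERdj3), which delivers unfolded clients to HSPA5, had 95.3 and 92.1 CPM in EV, against 59.4 and 59.1 CPM in WFI and rose 1.58-fold (log2 fold change 0.66 ± 0.057 SE, edgeR adjusted p = 1.86e-06). DNAJB9 (ERdj4), the unfolded protein response target that restrains the sensor IRE1, had 25.1 and 27.9 CPM in EV, against 29 and 29.9 CPM in WFI. Both EV samples were below both WFI samples, but the difference did not pass (log2 fold change -0.15, edgeR adjusted p = 0.202). It passed with the merged exon length correction (-0.26, edgeR adjusted p = 0.0447) and not with that of the principal transcript. DNAJC3 (p58IPK), known as an inhibitor of the kinase PERK, had 109 and 116 CPM in EV, against 101 and 87.1 CPM in WFI. The rise was small (log2 fold change 0.25, edgeR adjusted p = 0.00857) and was lost without EV replicate 2 (adjusted p = 0.0776) or WFI replicate 2, where it was 0.12 (adjusted p = 0.282). After the corrections it was 0.44 and 0.63.

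DNAJC1 (ERdj1), a membrane protein that can touch the ribosome, had 46.4 and 47.8 CPM in EV, against 42.2 and 39.96 CPM in WFI. Its call was as marginal as that of DNAJB1 (log2 fold change 0.20, edgeR adjusted p = 0.0421), and was lost without EV replicate 2 (adjusted p = 0.0980), WFI replicate 1 (0.197) or WFI replicate 2 (0.443). DESeq2 gave an adjusted p of 0.0934 and edgeR with no count filter 0.304, and the corrected values were -0.043 and -0.014. DNAJC10 (ERdj5), a disulfide reductase that helps clear misfolded proteins, had 185 and 194 CPM in EV, against 227 and 229.8 CPM in WFI. It was lower in both EV samples (log2 fold change -0.27 ± 0.040 SE, edgeR adjusted p = 0.000156). Its annotated exons are long, 21835 bases merged, and after the corrections the direction turned to 0.84 and 1.14, so no direction is given for it, though it is counted among the genes that fell.

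The ER-membrane members with the J domain in the cytosol help degrade or traffic membrane proteins. None of the 4 rose and 3 fell, where 34.5% of all genes rose and 31.5% fell, and 2 of the 3 did not keep that call after the corrections. DNAJB12, with 73.3 and 75.97 CPM in EV, against 78.2 and 71.7 CPM in WFI, did not pass (log2 fold change -0.0058, edgeR adjusted p = 0.944). Its paralog DNAJB14 had 52.2 and 55.5 CPM in EV, against 69.8 and 71.99 CPM in WFI. It was lower in both EV samples (log2 fold change -0.40 ± 0.066 SE, edgeR adjusted p = 0.000317). The corrections gave 0.38 (edgeR adjusted p = 0.000326) and 0.12, the opposite sign. No direction is thus given for DNAJB14, though it is counted among the genes that fell. DNAJC14, which escorts receptors out of the ER, had 20.01 and 25.5 CPM in EV, against 29.6 and 30.9 CPM in WFI. It fell (log2 fold change -0.41, edgeR adjusted p = 0.0121), and had -0.26 without EV replicate 1. DNAJC18 had 9.29 and 12.03 CPM in EV, against 15.9 and 14.7 CPM in WFI and a log2 fold change of -0.52 (edgeR adjusted p = 0.0119). The call on DNAJC18 was lost without WFI replicate 1 (adjusted p = 0.0621) and after either correction (-0.30 and -0.24, adjusted p = 0.106 and 0.192).

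Of 5 tested mitochondrial members, 2 rose and 1 fell, beside 34.5% and 31.5% of all genes. Their median log2 fold change was 0.21, 0.098 without EV replicate 2, and 0.29 and 0.020 after the corrections. DNAJC4, listed as mitochondrial and poorly studied, had 35.3 and 34.8 CPM in EV, against 19.7 and 19.8 CPM in WFI and rose 1.78-fold (log2 fold change 0.83 ± 0.096 SE, edgeR adjusted p = 1.92e-05). The principal-transcript correction gave 0.37 on the log2 scale. DNAJC19 (TIM14), a part of the protein import motor of the inner membrane, had 26.7 and 26.2 CPM in EV, against 20.9 and 22.1 CPM in WFI. Its rise (log2 fold change 0.30, edgeR adjusted p = 0.0236) was lost without WFI replicate 1 (adjusted p = 0.277), without WFI replicate 2 (0.137), under DESeq2 (0.0661), with no count filter (0.136) and with the principal-transcript correction, which left 0.020 (adjusted p = 0.880).

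DNAJC15, the paralog of DNAJC19, had 14.5 and 16.4 CPM in EV, against 13.5 and 13.3 CPM in WFI. It lay above WFI in both samples without passing (log2 fold change 0.21, edgeR adjusted p = 0.180), and passed after the corrections with 0.62 and 0.86 (adjusted p = 0.00127 and 0.000111). DNAJC11, of the cristae-organising complex, had 53.9 and 54.8 CPM in EV, against 57.6 and 52.9 CPM in WFI and its groups overlapped. DNAJC30, a mitochondrial member tied to complex I repair, had 5.88 and 4.44 CPM in EV, against 7.80 and 7.41 CPM in WFI. At this low level its fall (log2 fold change -0.56, edgeR adjusted p = 0.0367) was lost without EV replicate 2 (0.0897), WFI replicate 1 (0.139) or WFI replicate 2 (0.0867), and under DESeq2 (adjusted p = 0.120) or upper quartile scaling (adjusted p = 0.0557).

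All 3 tested members of vesicles and endosomes were lower in EV, where 31.5% of all genes were. DNAJC5 (cysteine string protein), which keeps SNARE proteins folded on secretory vesicles, had 187 and 192 CPM in EV, against 284 and 288 CPM in WFI. It was 0.663 times the WFI level (log2 fold change -0.59 ± 0.038 SE, edgeR adjusted p = 1.37e-07) and -0.27 on the log2 scale after the principal-transcript correction. DNAJC13 (RME-8), a regulator of endosomal sorting, had 77.7 and 67.5 CPM in EV, against 149.8 and 149.5 CPM in WFI, or 0.485 times the WFI level (log2 fold change -1.04 ± 0.064 SE, edgeR adjusted p = 1.05e-07). The corrections left it lower, at -0.53 and -0.42. DNAJC6 (auxilin), which uncoats clathrin vesicles with HSPA8, had 6.65 and 6.82 CPM in EV, against 9.01 and 9.27 CPM in WFI. Its call (log2 fold change -0.44, edgeR adjusted p = 0.0414) was lost without WFI replicate 1 (0.142) or WFI replicate 2 (0.184), under DESeq2 (0.166), upper quartile scaling (0.0699) and the 50-count filter (0.0632), and after both corrections (-0.16 and -0.069).

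DNAJC12, a cochaperone of the aromatic amino acid hydroxylases, and DNAJC22, whose location was not assigned, did not pass (log2 fold changes 0.25 and -0.21). Without EV replicate 1 these were 0.40 and -0.37, and without EV replicate 2 0.053 and -0.087. Beside DNAJA3 and the read-through gene, 5 members had too few counts to test. DNAJB8, a testis member, had 7 and 5 counts in EV and 0 and 0 in WFI. DNAJC5G, a testis relative of DNAJC5, had 5 and 11 counts in EV and 1 and 0 in WFI. DNAJB7 had 0 and 3 counts in EV and 5 and 2 in WFI, DNAJC5B had 6 and 4 counts in EV and 5 and 1 in WFI and DNAJC28 had 1 and 0 counts in EV and 0 and 3 in WFI. These values are too low for a statement on direction.

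Summed over the family, the DNAJ level was 3609.8 and 3583 CPM in EV, against 2498 and 2482 CPM in WFI, a ratio of 1.44. Most of that difference was DNAJA1: without it the sums were 2409.6 and 2401 CPM in EV, against 2248 and 2234 CPM in WFI, a ratio of 1.07. Of the DNAJ sum, DNAJA1 made up 33.2% and 33% in EV, against 10.03% and 9.99% in WFI. Class A summed to 1333 and 1305 CPM in EV, against 358 and 361 CPM in WFI, and without DNAJA1 to 133 and 123 CPM in EV, against 108 and 113 CPM in WFI. Class B summed to 986 and 1003 CPM in EV, against 767 and 757 CPM in WFI. Class C was the only class whose sum was lower, with 1291 and 1275 CPM in EV, against 1372 and 1364 CPM in WFI. DNAJC10, for which no direction is given, made up 185 and 194 CPM of it in EV, against 227 and 229.8 CPM in WFI. No sum by class or location was corrected for length and GC. The sums of EV and WFI samples did not overlap in any class, where 82.8% of all genes tested did not overlap either. With 2 samples against 2, an exact permutation test cannot give a two-sided p below 0.333, so none is given for the sums.

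**Figure D4:**
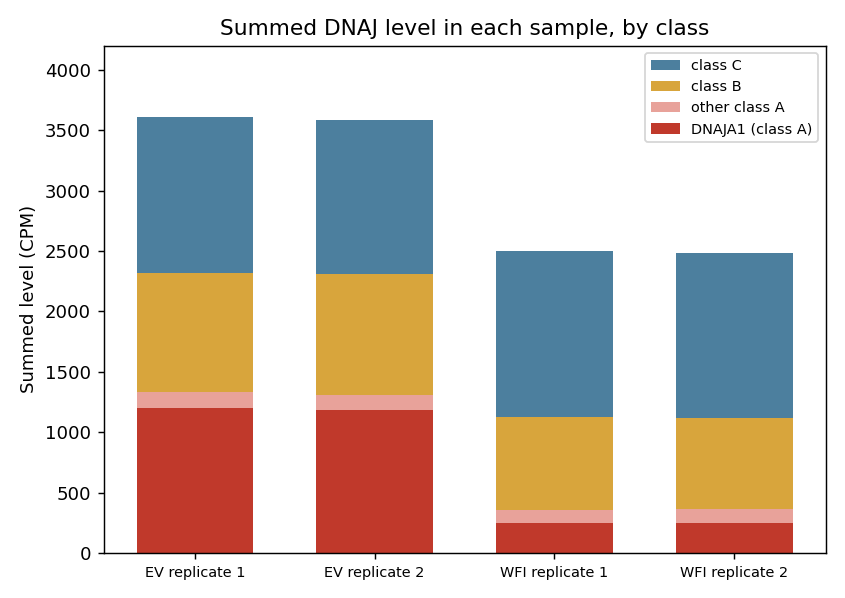
Summed level of DNAJ genes in each sample, in CPM, stacked by class with DNAJA1 drawn apart from the other class A members. The EV bars reach 3609.8 and 3583 CPM and the WFI bars 2498 and 2482 CPM, and the DNAJA1 segment makes up most of the difference.

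By location, the cytosol and nucleus summed to 2506 and 2445 CPM in EV, against 1229.7 and 1229.5 CPM in WFI, with a ratio of 2.01, and 1.31 without DNAJA1. The ER lumen summed to 527 and 551 CPM in EV, against 499 and 488 CPM in WFI. Without DNAJC25 its sums overlapped, with 470.0 and 487 CPM in EV, against 489 and 476 CPM in WFI. The ER membrane had 155 and 169 CPM in EV, against 193 and 189 CPM in WFI, and the mitochondria had 136 and 137 CPM in EV, against 119 and 116 CPM in WFI. Vesicles and endosomes showed the lowest ratio, 0.606, with 272 and 267 CPM in EV, against 443 and 446 CPM in WFI.

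The chaperones and exchange factors that work with DNAJ proteins were read from a list of 32 genes. Of 29 tested, 16 rose and 5 fell, and 8 were not called, where 34.5% of all genes rose and 31.5% fell. The median log2 fold change was 0.39, against 0.021 over all genes. HSPA8, the constitutive cytosolic HSP70 and the main partner of DNAJA1, had 2194 and 2155 CPM in EV, against 1259 and 1258 CPM in WFI. It rose 1.73-fold (log2 fold change 0.79 ± 0.024 SE, edgeR adjusted p = 2.98e-10). HSPH1, an HSP110 that exchanges nucleotide on HSP70, had 1217 and 1192 CPM in EV, against 276 and 275 CPM in WFI, a rise of 4.37-fold (log2 fold change 2.13 ± 0.030 SE, edgeR adjusted p = 8.08e-13) close in size to that of DNAJA1. BAG3, an exchange factor that sends clients to autophagy, had 366 and 386 CPM in EV, against 70.2 and 65.8 CPM in WFI and rose 5.53-fold (log2 fold change 2.47 ± 0.048 SE, edgeR adjusted p = 8.7e-12).

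HSPA5 and HSPA9, the HSP70s of the ER and the mitochondria, differed little between the groups in size. HSPA5 had 917 and 915 CPM in EV, against 1019 and 1056 CPM in WFI, slightly lower in EV (log2 fold change -0.18 ± 0.028 SE, edgeR adjusted p = 0.000204). Values corrected for length and GC are not given for the partners. HSPA9 had 361 and 366 CPM in EV, against 369 and 353 CPM in WFI with overlapping groups (log2 fold change 0.0092, edgeR adjusted p = 0.835). HSF1, the heat shock transcription factor, had 304 and 290.4 CPM in EV, against 179 and 175 CPM in WFI (log2 fold change 0.75, edgeR adjusted p = 3.57e-08). BAG1, another exchange factor, had 64.4 and 65.5 CPM in EV, against 27.5 and 26.3 CPM in WFI and rose 2.41-fold (edgeR adjusted p = 8.91e-08). Of the other BAG genes listed, BAG4 and BAG5 were lower in EV (log2 fold changes -0.78 and -0.98, edgeR adjusted p = 5.79e-05 and 3.18e-07). BAG2 was not called, and BAG3 is given above. The stress-inducible HSPA1A and HSPA1B, usual companions of DNAJB1, had no usable measurement: HSPA1A had 2 and 0 counts in EV and 1 and 1 in WFI, and of 154 coding genes between 29 and 33 Mb of chromosome 6, where both lie, 2 had 10 or more counts in every sample. HSPA6, a further HSP70 of the list, could be tested at a low level. It had 66 and 92 counts in EV and 27 and 15 in WFI (log2 fold change 2.05 ± 0.38 SE, edgeR adjusted p = 0.000720).

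Gene length moved with the fold change in these libraries. Across genes, longer transcripts tended to have lower log2 fold changes: Spearman's rho was -0.25 with merged exon length over 17073 genes and -0.37 with principal transcript length over 13556. Over the 38 DNAJ genes it was -0.31 and -0.59. Genes are not independent replicates, and they share the libraries. The length and base content (GC) trend was then removed. With merged exon length 20 DNAJ genes rose and 7 fell, against 6499 and 4637 of the 17465 genes tested. With principal transcript length 15 rose and 7 fell, against 6000 and 4898 of all genes tested. Lengths were known for 17073 and 13556 of all genes tested, and for all 38 DNAJ genes. Genes without one stayed uncorrected, so these counts are not fully like for like. DNAJA1 and DNAJC25 stayed the highest of those drawn and DNAJC16 the lowest: DNAJA1 had 2.12 and 2.13, DNAJC25 2.32 and 2.32, and DNAJC16 -1.36 and -1.36.

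**Figure D5:**
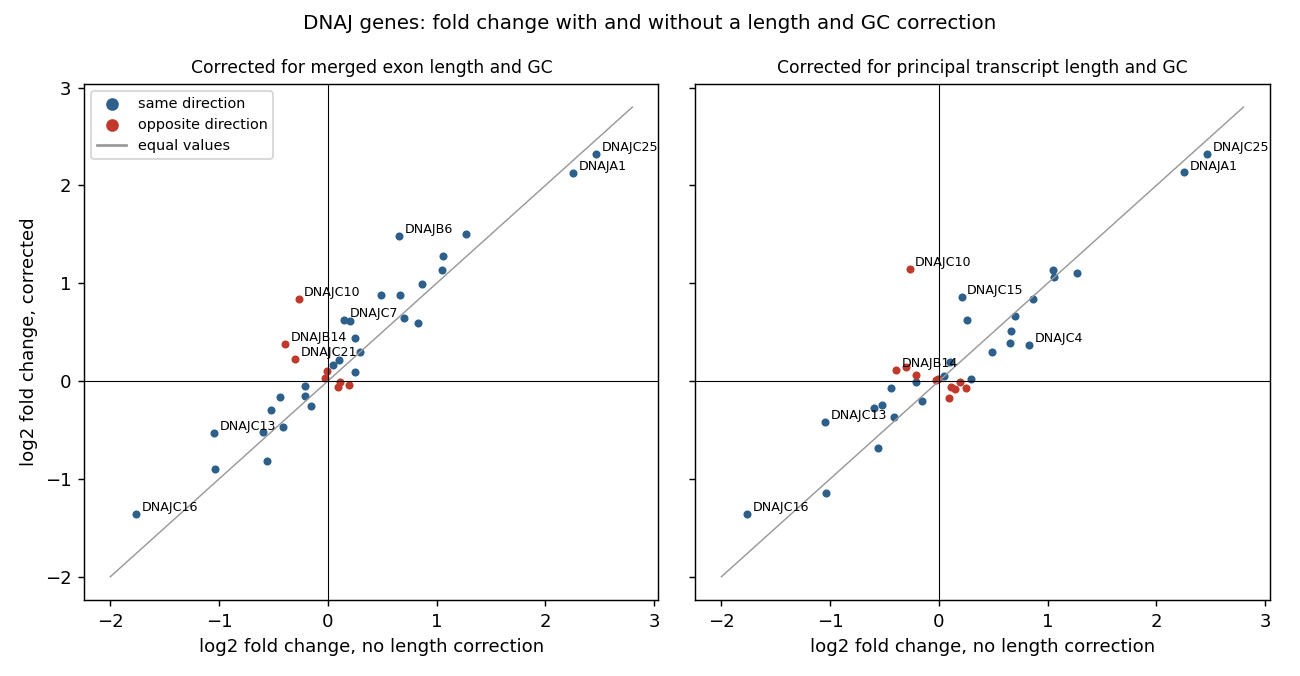
Log2 fold change, EV over WFI, of DNAJ genes without a length correction (x) and with a correction for length and GC (y), for merged exon length on the left and principal transcript length on the right; red points changed sign. DNAJC10 moved furthest, to 0.84 and 1.14, and DNAJB13, which lies far above the others, is not drawn.

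A set of 12 DNAJ genes rose and 5 fell with the same call and direction under each of the 12 alternative settings in which they were tested: filters, scalings, DESeq2, the replicate block, both corrections and leaving out each sample. Over all genes tested, 22.4% rose and 17.5% fell on these terms, though genes without a length stayed uncorrected there. Of the DNAJ genes 31.6% and 13.2% did, so this too does not set the family apart. Those that rose were DNAJA1, DNAJA4, DNAJB2, DNAJB4, DNAJB6, DNAJB11, DNAJB13 (tested through its EV counts alone and not under the 50-count filter), DNAJC2, DNAJC4, DNAJC9, DNAJC24 and DNAJC25. Those that fell were DNAJB5, DNAJC5, DNAJC13, DNAJC14 and DNAJC16. The minimum log2 fold change of 1 was not among the 12 settings. With it 6 DNAJ genes rose and 3 fell, against 17.5% and 13.3% of all genes. DNAJB2, DNAJB6, DNAJB11, DNAJC4, DNAJC9, DNAJC24, DNAJC5 and DNAJC14 then lost their call. Of the genes tested, 7 overlap another coding gene on the same strand and 12 on the opposite one. The strand setting of the counting is not given in the sources used here, so reads of overlapping genes could be shared.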

How the data were processed

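RNA of 4 samples of HT1376 cells was sequenced from directional libraries, per the labels' protocols. The authors deposited raw counts, whole numbers for every gene and sample. Genome build hg38 is named per the submitters' processing notes; how reads were aligned and counted, and with which annotation and strand setting, is not given in the sources. Positions, gene types and lengths came from GENCODE 29 on the same build, and promoter sequences from RefSeq (GRCh38.p14).

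The DNAJ genes and all gene lists were chosen with earlier results of these data known, so the lists are described by counts and medians, and no list was tested. Locations were assigned from textbook knowledge. Differential expression was tested on the deposited counts over all genes with edgeR 4.0.16 in R 4.3.3 (filterByExpr, TMM scaling, quasi-likelihood test, group as the only term), with Benjamini-Hochberg adjustment over all 17465 genes tested and a threshold of 0.05. An SE is the absolute log2 fold change over the square root of F. The code was tested on simulated data. Per-sample values are given for the 10 called members with the largest changes whose groups do not overlap, the 3 of highest mean CPM, all tested ER and mitochondrial members and 8 partners, of which 1 is not reported here, and for others where the text describes them.

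Alternatives were scaling by RLE or the upper quartile, DESeq2 1.42.0, a filter of 50 counts in 2 samples or none at all, the replicate number as a block, each sample left out in turn (the lone sample of its group is then assumed to vary like the other group), a minimum fold change, and a loess correction (span 0.5) for GC and merged exon length. A correction with the principal transcript's length was added after seeing the data. Replicates of a group differed beyond sampling noise (chi-square per degree of freedom 4.56 in EV and 2.21 in WFI) and correlated at 0.993 and 0.997 on log2(CPM + 1). Protein features were not analysed here.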

Additional observations from a re-analysis of the deposited data

How the results depend on the processing

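The number of DNAJ genes that rose was 16, and the number that fell was 11. With a log2 fold change of at least 1 required they were 6 and 3, and after either length and GC correction 7 fell. The median log2 fold change of the DNAJ genes, 0.11, was 0.16 with upper quartile scaling, 0.053 with no count filter, 0.22 with the correction for merged exon length and GC and 0.058 with that of the principal transcript. Leaving out 1 sample at a time gave medians of 0.021 to 0.12 over the DNAJ genes and of -0.010 to 0.091 over all genes. Under DESeq2 13 rose and 9 fell, against 5484 and 4683 of the 17465 genes tested.

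Same-numbered samples share only a number: their deviations from the group means correlated at 0.0130. With the replicate block 16 DNAJ genes rose and 11 fell, against 5957 and 5573 of the 17465 genes tested, and the DNAJ median was 0.10. The calls on DNAJB1 and DNAJC7 changed, as given with them, and no other.

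Signs turned as follows, in log2 fold changes. Of these genes DNAJB1, DNAJB14, DNAJC1, DNAJC10 and DNAJC21 had passed the test without a correction, and both corrections turned them. The others had not passed. With merged exon length they were DNAJB1 -0.011, DNAJB12 0.11, DNAJB14 0.38, DNAJC1 -0.043, DNAJC8 -0.059, DNAJC11 0.027, DNAJC10 0.84 and DNAJC21 0.22, and with the principal transcript DNAJB1 -0.065, DNAJB12 0.018, DNAJB14 0.12, DNAJC12 -0.071, DNAJC1 -0.014, DNAJC7 -0.082, DNAJC8 -0.17, DNAJC11 0.0076, DNAJC27 0.064, DNAJC10 1.14 and DNAJC21 0.14. Only DNAJB14, DNAJC10 and DNAJC21 among these were called lower without a correction and in every other alternative run apart from the minimum fold change. The ER median was 0.11 and 0.018 after the corrections, against -0.15 without. Under DESeq2 the sign turned for DNAJB12 0.013, under RLE scaling for DNAJB12 0.013, under upper quartile scaling for DNAJB12 0.050 and DNAJC11 0.034, under the 50-count filter for DNAJB12 0.041 and DNAJC11 0.025 and with no filter for DNAJA2 -0.029. Leaving out 1 sample gave DNAJA2 from -0.024 to 0.094, DNAJB12 from -0.099 to 0.025, DNAJC8 from -0.035 to 0.18, DNAJC11 from -0.12 to 0.0082, DNAJC17 from -0.077 to 0.24 and DNAJC27 from -0.51 to 0.020, and a class C median from -0.021 to 0.066. The corrections take out length and GC together, and the cause of each move was not tested. Depth limits the members of low level: the SE of the log2 fold change was 0.21 for DNAJC30 and 0.030 for DNAJA1.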

Other observations

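Of the 41 noncoding rows with a DNAJ symbol, 7 were tested, of which 2 were called higher in EV and 1 lower, beside 34.5% and 31.5% of all genes; those named here were chosen after their values were seen. DNAJC9-AS1 (ENSG00000227540), antisense to DNAJC9, had 62 and 81 counts in EV and 13 and 26 in WFI (log2 fold change 2.01, edgeR adjusted p = 0.00111). A second row of that symbol (ENSG00000236756) had 17 and 36 counts in EV and 36 and 45 in WFI (log2 fold change -0.47, edgeR adjusted p = 0.360) and was not called. Without the strand setting, antisense reads and those of DNAJC9 cannot be told apart. DNAJC3-DT, divergent from DNAJC3, had 33 and 35 counts in EV and 62 and 68 in WFI (log2 fold change -0.79, edgeR adjusted p = 0.0491), while DNAJC3 itself was slightly higher. DNAJB8-AS1 had 37 and 52 counts in EV and 0 in both WFI samples; it passed the count filter through EV alone, so its call was built into its selection.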
